A study of Homo sapiens with 6 samples.

Results

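Histone genes encode the proteins around which DNA is wound. They were read here in poly(A)-selected RNA from PC3, an established line of human prostate cancer cells. Members were all protein-coding genes of the count table whose symbol belongs to the linker H1 family or to the core families H2A, H2B, H3 and H4, by a fixed pattern of symbols. This gave 82 genes of 60545 in the table, of which 65 were replication-dependent, 10 were variants and 7 were germline genes. Cells treated with the peptide RSM3 (3 libraries) were compared with Control cells (3 libraries), all of the same line and grown in the same medium with serum. The labels give no dose or duration, and do not say what the Control cells received. Nor do they say whether replicates were separate cultures, so the p-values below measure only the spread between these libraries, which may be technical.

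Replication-dependent histone genes lie in clusters, are transcribed mainly in S phase, when DNA is copied, and supply the bulk of histone protein. Their mRNAs usually carry no poly(A) tail: they are cleaved just after a short stem-loop, which is bound by the stem-loop binding protein and recognised with help from the U7 small nuclear ribonucleoprotein. Variant histone genes are single genes scattered in the genome, are expressed through the whole cell cycle and make ordinary polyadenylated mRNAs. Proliferating cells, such as a cancer line, use both. Selection with oligo(dT) favours tailed RNA, so counts of replication-dependent genes in such libraries need not reflect the whole of their transcripts. Whether the counted reads came from tailed RNA was not measured.

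The 3′ ends of the gene models show this difference. The histone stem-loop was searched for on the sense strand as a hairpin of 16 bases that begins with GG, ends with CC, has TTT at its middle and pairs all 6 bases of its stem, and a poly(A) signal as AATAAA or ATTAAA on the sense strand in the last 50 bases of a transcript model. Of the 82 members, 80 matched a gene of GENCODE 29 (GRCh38) by identifier, the exceptions being H3C2 and H3C3. The stem-loop was present in 27 of 63 replication-dependent genes (42.9%), in 2 of 10 variants and in 26 of 19795 other protein-coding genes (0.131%). Models of 31 replication-dependent genes ended at the stop codon and could not hold it. Among the 32 with an annotated 3′ UTR, 27 held it (84.4%). A poly(A) signal was present in 22 of 63 replication-dependent genes (34.9%), in 9 of 10 variants and in 81.6% of other protein-coding genes. Among the 32 replication-dependent genes with an annotated 3′ UTR, 21 had one (65.6%), so much of the low share goes with models that end early. Abundant counts did not require either element in the model. H2BC12 and H1-2, ranked 2 and 3 by level among replication-dependent genes, have models that end at the stop codon and hold neither. The sites of 3 other abundantly counted replication-dependent genes and of H2AX, a variant that holds both elements, are shown 5′ to 3′ with the stem-loop in capitals.
H2AC6: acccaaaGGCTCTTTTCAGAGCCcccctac
H2BC21: ctccaaaGGCTCTTTTCAGAGCCacccacc
H4C8: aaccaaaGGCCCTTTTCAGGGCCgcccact
H2AX: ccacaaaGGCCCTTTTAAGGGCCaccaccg
The H2AC6 site lies at chr6:26124662-26124691 (plus strand), that of H2BC21 at chr1:149886181-149886210 (minus strand), that of H4C8 at chr6:26285124-26285153 (minus strand) and that of H2AX at chr11:119094891-119094920 (minus strand), all in 3′ UTR sequence of GENCODE 29. The H2AC6 and H2BC21 sites hold the same letters within the capitals.

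Many replication-dependent models continued past the stem-loop. Of the 27 with a stem-loop, 19 had more than 100 bases beyond it, and 12 of these 19 also had a poly(A) signal at their end. The distance ran up to 1729 bases, in H2BC21. It was 1114 bases in H2AC6, 630 bases in H4C8 and 1044 bases in H2AX. The poly(A) signals of these and of 2 variants without a stem-loop are shown with the hexamer in capitals, since they are what an oligo(dT)-selected transcript would end near.
H2AC6: ctggcatgaggtAATAAAaggtaatgc
H2BC21: gctattgttattAATAAAgttaccaattaa
H4C8: caataaaaggtgAATAAAatcaggtcactc
H2AX: tggactaattttATTAAAggattgtttttt
H2AZ1: gtggataagttcAATAAAggtcatatccca
H3-3B: ggatgagactaaAATAAAatttttgaagtt
They lie at chr6:26139076-26139102 (H2AC6, plus strand), chr1:149884465-149884494 (H2BC21, minus strand), chr6:26281062-26281091 (H4C8, minus strand), chr11:119093881-119093910 (H2AX, minus strand), chr4:99948090-99948119 (H2AZ1, minus strand) and chr17:75776436-75776465 (H3-3B, minus strand). Of these 6, H2AX holds ATTAAA and the others AATAAA.

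**Figure D1:**
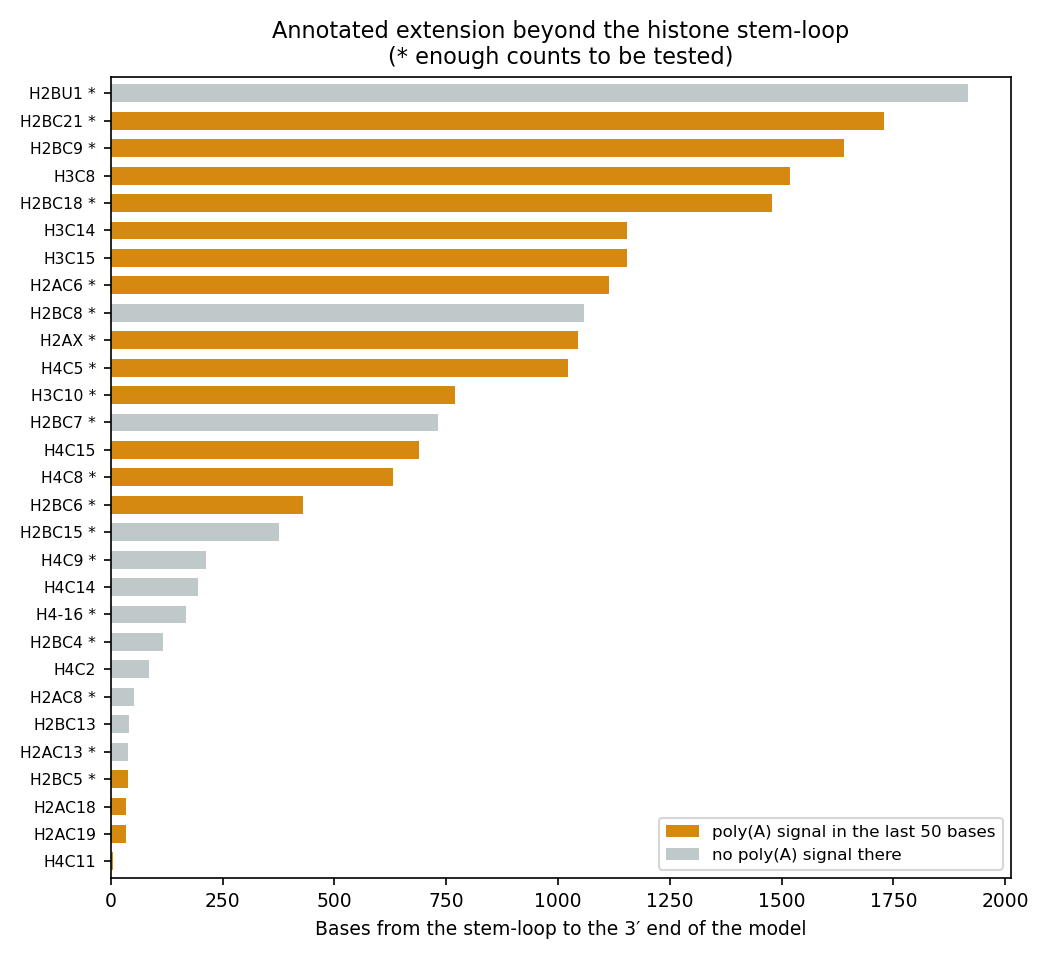
Bases between the histone stem-loop and the 3′ end of the longest GENCODE 29 model that holds it, for the 27 replication-dependent and 2 variant genes (H2AX and H2BU1) with a stem-loop. Orange bars end with a poly(A) signal, grey bars do not, and an asterisk marks genes with enough counts to be tested.

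The promoters differed by histone family more than by class. Promoter sequences of RefSeq (GRCh38.p14) matched 71 members, and 250 bases before the start were searched on both strands for CCAAT, the octamer ATTTGCAT and TATAAA. None of these motifs contains another. CCAAT was found in 84.5% of 58 replication-dependent promoters, 6 of 7 variant promoters and 32.9% of 27234 other promoters. The octamer was found in 41.4% of replication-dependent promoters and 1.57% of others. It was present in 13 of 16 H2B and 10 of 14 H2A promoters of the replication-dependent class, in 1 of 11 H3 promoters and in none of 12 H4 or 5 linker promoters. That H3 promoter, of H3C4, is the same sequence as the promoter of H2AC7, since the first start listed for each gene was used, and it is counted under both families. Windows of neighbouring H2A and H2B genes can also overlap on opposite strands, so some octamers are counted under both of these families. The octamer of H2AC6, for example, is the same site as that of H2BC4, read on the other strand. Shares of the H2A and H2B families are therefore not independent. Among variants the octamer was present in 1 of 7. TATAAA was found in 67.2% of replication-dependent, 4 of 7 variant and 11% of other promoters. The last 150 bases before the start are shown for H2AZ1, the member that passed the test below, and for H2AC6, the replication-dependent gene with the most counts, with matches in capitals.
H2AZ1: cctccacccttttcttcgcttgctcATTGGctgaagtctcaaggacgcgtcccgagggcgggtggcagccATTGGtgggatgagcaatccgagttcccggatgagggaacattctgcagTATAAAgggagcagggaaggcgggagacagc
H2AC6: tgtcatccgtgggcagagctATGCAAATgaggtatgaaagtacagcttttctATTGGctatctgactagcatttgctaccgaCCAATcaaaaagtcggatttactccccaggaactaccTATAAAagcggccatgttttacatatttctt
They lie at chr4:99950276-99950425 (minus strand) and chr6:26124022-26124171 (plus strand). H2AC6 holds all 3 motifs, with the octamer on the opposite strand as ATGCAAAT, and H2AZ1 holds CCAAT, on the opposite strand as ATTGG, and TATAAA. A match is a description of letters, and binding was not measured.

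Counts split the classes sharply. A gene was tested if it had about 10 counts or more in at least 3 libraries, which 9 of 10 variants, 27 of 65 replication-dependent genes and none of 7 germline genes had. Of the 38 replication-dependent genes not tested, 8 had no count in any library, 14 had 1 to 10 counts over all 6 libraries, and none exceeded 17 counts in a library. H2AC15, H2AC7, H2BC10, H3C11, H3C14, H3C4, H4C13 and H4C6 were the genes at 0. A count of 0 allows up to 0.158 to 0.225 counts per 1000000 (CPM, the unit of all levels below, scaled with TMM factors) in a library, taking 3 counts as the limit. The germline genes, which replace other histones in developing sperm or eggs, were near or at 0 too: H1-7, H1-8, H2AC1 and H2BC1 had no count, and H1-6, H3-4 and H3-5 had at most 7 in a library. The variant not tested, the H2B gene H2BE1, also had at most 7 counts in a library.

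Members that could be tested had longer annotated ends. Among replication-dependent genes with a model, 14 of the 25 tested had a poly(A) signal, against 8 of the 38 not tested. The model ended at the stop codon in 4 of the 25 tested, against 27 of the 38 not tested. Such a model has no 3′ UTR in which a poly(A) signal would lie, so the contrast in signals is not separate from the contrast in annotated ends. The median model length was 1294 bases in the tested and 411 bases in the untested genes. Longer models collect more reads at the same RNA level, so these shares describe what the table can show and not which genes are transcribed. By position, 22 of 50 replication-dependent genes on chromosome 6, 2 of 12 on chromosome 1 and the gene on chromosome 12, H4-16, were tested. The 9 tested variants were spread over 8 chromosomes. Near-identical copies limit some counts: 15 replication-dependent genes share at least 50% of their 100-base windows with another gene, and of these H2AC13 and H4C12 were tested.

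In RSM3-treated cells all 9 tested variant histone genes of the symbol pattern had a higher estimated level than in Control cells. For H2AZ1 the difference passed the test. Among these 9 the direction was the same in 18 other settings except for H2BU1, which was at −0.0061 on the log2 scale without RSM3 replicate 1. Outside the pattern, the variant MACROH2A2 had a lower estimate in RSM3 (log2 fold change −0.18), while MACROH2A1 (0.09) and CENPA (0.88) had higher ones. H2AZ1 encodes H2A.Z.1, a variant of H2A found at promoters and regulatory elements, and it averaged 201 ± 30.8 CPM in RSM3 and 146 ± 3.52 CPM in Control (SD, n = 3 each). The replication-dependent genes were divided, 13 of 27 with a positive log2 fold change, and none passed in either direction, where 49.0% of all genes tested had a positive one. The test was edgeR's quasi-likelihood F-test over all 15773 genes with enough counts, with Benjamini-Hochberg adjusted p under 0.05, so that 1 of 9 variants was higher where 3.09% of all genes tested were higher. No variant and no replication-dependent gene was lower, where 1.1% of all genes were. DESeq2 and limma voom also called 0 replication-dependent genes. By unadjusted p under 0.05, 5 variants and 2 replication-dependent genes (H4C8 and H2BC15) passed, where 17.8% of all genes did. The median log2 fold change was 0.25 over the tested variants (0.13 to 0.53) and −0.04 over the tested replication-dependent genes (−0.58 to 1.06), with −0.0048 over all genes tested. Among tested members, the 3 RSM3 libraries lay above the 3 Control libraries for 5 variants and for 2 replication-dependent genes, where 12.8% of all genes did so, and below them for H4C8 alone, where 11.1% did so.

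**Figure D2:**
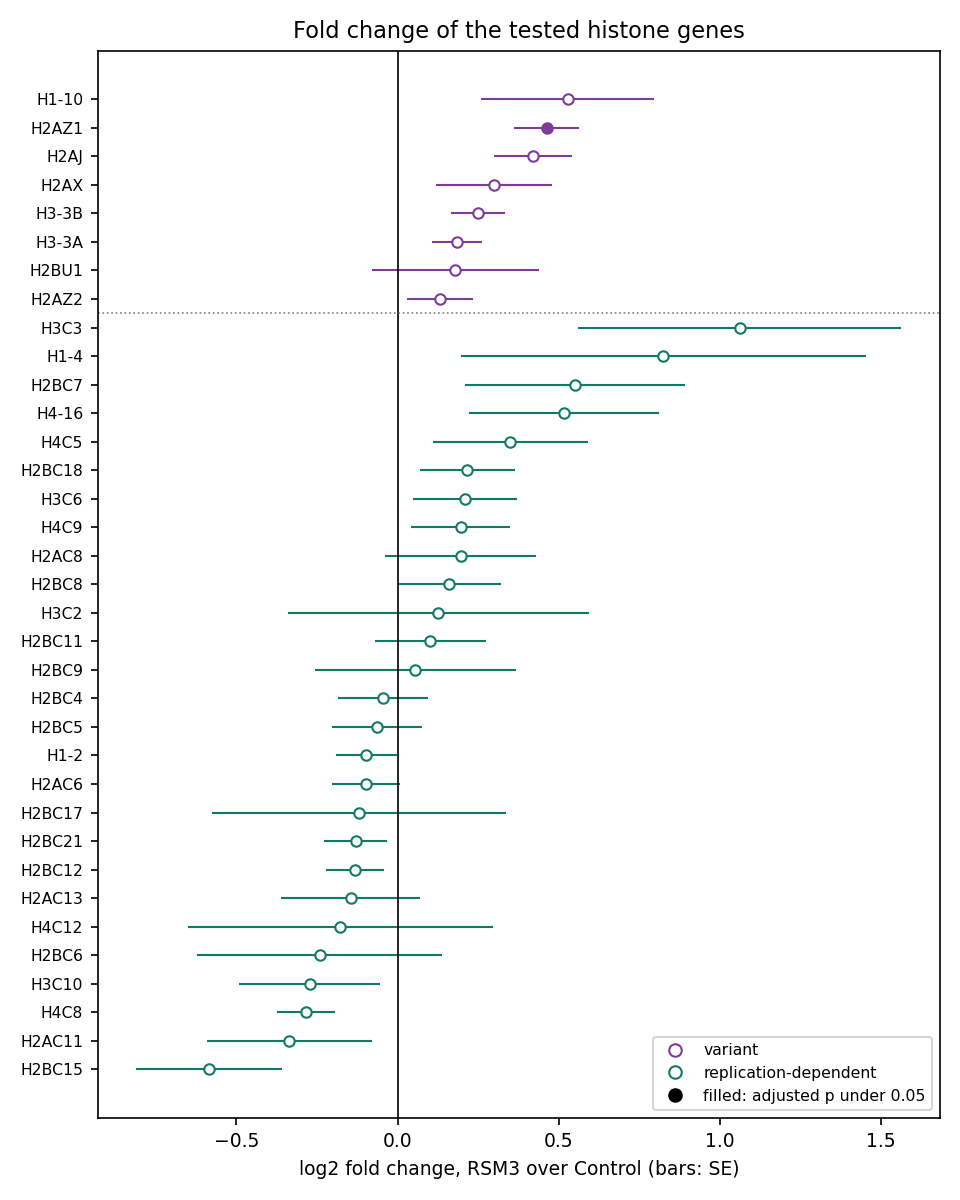
Log2 fold change, RSM3 over Control, of tested histone genes (points) with standard errors (bars), variants above and replication-dependent genes below the dotted line. All variants shown lie right of 0 and H2AZ1 alone is filled, for an adjusted p under 0.05, while replication-dependent genes lie on both sides.

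The H2A family held the variant that passed. H2AZ1 (chr4:99948086-99950388, minus strand) had 168, 229 and 206 CPM in RSM3 replicates 1, 2 and 3, against 142, 148 and 148 CPM in Control replicates 1, 2 and 3. Its log2 fold change was 0.46 ± 0.10 (SE, edgeR adjusted p = 0.0218), and every RSM3 library was above every Control library, with RSM3 replicate 1 nearest to them. H2AZ2, which encodes the closely related H2A.Z.2, had 112, 151 and 146 CPM in RSM3, against 122, 125 and 127 CPM in Control. Replicates 2 and 3 of RSM3 were above Control and replicate 1 was below it, so the groups overlapped, and the log2 fold change was 0.13 ± 0.10 (edgeR adjusted p = 0.571). The ratio of H2AZ1 to H2AZ2 counts was 1.50, 1.52 and 1.41 in RSM3, against 1.16, 1.18 and 1.17 in Control. These ratios did not overlap, and RSM3 replicate 1 was among the high values. The call of H2AZ1 depended on the processing: its log2 fold change was 0.36 to 0.59 in 18 other settings, 11 of which called it. The call was lost in each fit that left out a library other than RSM3 replicate 1 (edgeR adjusted p = 0.0777 to 0.129).

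H2AJ encodes an H2A variant known from luminal epithelial cells and from senescent fibroblasts. It had 32.2, 25.0 and 25.9 CPM in RSM3, against 21.7, 19.7 and 20.6 CPM in Control. The groups did not overlap, with RSM3 replicate 1 highest, and the log2 fold change was 0.42 ± 0.12 (edgeR adjusted p = 0.0725). H2AX encodes the histone phosphorylated at DNA breaks, and it had 123, 87.4 and 96.5 CPM in RSM3, against 100, 91.0 and 58.3 CPM in Control. RSM3 replicate 1 was the highest and Control replicate 3 the lowest of all 6, and the groups overlapped (log2 fold change 0.30 ± 0.18, edgeR adjusted p = 0.439).

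H3-3A and H3-3B encode the same protein, H3.3, which is placed on DNA outside replication. H3-3B (chr17:75776434-75785893, minus strand) had 808, 966 and 967 CPM in RSM3, against 762, 779 and 764 CPM in Control. All RSM3 libraries were above all Control libraries, replicate 1 by the least, and the log2 fold change of 0.25 ± 0.08 had an edgeR adjusted p = 0.129. H3-3A had 113, 119 and 112 CPM in RSM3, against 96.2, 105 and 101 CPM in Control, again without overlap (log2 fold change 0.18 ± 0.08, edgeR adjusted p = 0.229). For H3-3A, 10.4% of 100-base windows also occur in another gene. The ratio of H3-3B to H3-3A counts overlapped between groups, at 7.18, 8.14 and 8.63 in RSM3 and 7.92, 7.43 and 7.55 in Control.

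H1-10, a linker gene outside the clusters, encodes a divergent somatic linker histone. It had 6.62, 5.62 and 6.77 CPM in RSM3, against 6.20, 4.56 and 2.48 CPM in Control. Control replicate 3 was lowest and the groups overlapped (log2 fold change 0.53 ± 0.27, edgeR adjusted p = 0.338). H2BU1, an H2B gene counted among the variants by its symbol, holds a stem-loop and a long 3′ extension, but no poly(A) signal by the search above. It lies near the germline histone gene H3-4 on chromosome 1. The description of variants as scattered single genes with ordinary 3′ ends therefore does not hold for it. H2BU1 had 3.69, 2.37 and 2.77 CPM in RSM3, against 2.36, 2.96 and 2.43 CPM in Control, with overlap (log2 fold change 0.18 ± 0.26, edgeR adjusted p = 0.787).

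**Figure D3:**
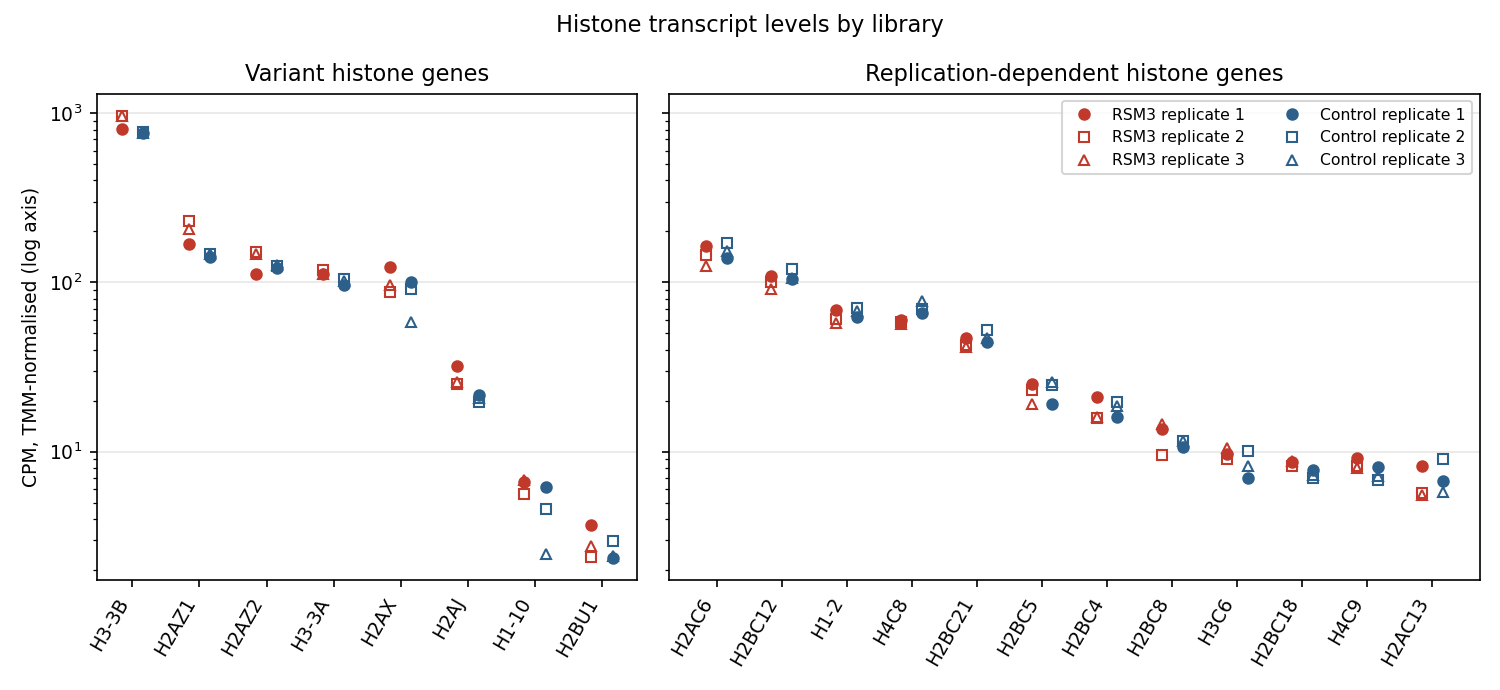
Level of tested variant genes (left) and of the 12 replication-dependent genes with the most counts (right) in every library, in CPM on a log axis, with RSM3 in red left of Control in blue. Levels are not divided by transcript length, so heights compare libraries within a gene and not genes with each other. H2AZ1 lies between 168 and 229 CPM in RSM3 and between 142 and 148 CPM in Control.

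Counts of replication-dependent genes were concentrated in a few members. H2AC6 held 27.4%, 27.2% and 24.9% of their counts in RSM3 and 26.0%, 27.6% and 26.2% in Control. The 12 genes with the most counts held 90.6% to 91.8% in RSM3 and 91.2% to 92.1% in Control. H2AC6, an H2A gene of the chromosome 6 cluster, had 164, 144 and 125 CPM in RSM3, against 140, 171 and 154 CPM in Control. The groups overlapped, with RSM3 replicate 3 lowest and Control replicate 2 highest (log2 fold change −0.10 ± 0.11, edgeR adjusted p = 0.699). The H2B gene H2BC12 had 109, 101 and 91.2 CPM in RSM3, against 104, 119 and 106 CPM in Control, with overlap (log2 fold change −0.13 ± 0.09, edgeR adjusted p = 0.504). Of the 100-base windows of H2BC12, 28.4% occur in another gene. The linker gene H1-2 had 69.1, 60.9 and 57.5 CPM in RSM3, against 62.4, 70.4 and 67.6 CPM in Control, and RSM3 replicate 1 again lay within the Control range (log2 fold change −0.10 ± 0.09, edgeR adjusted p = 0.664).

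H4C8, an H4 gene with a stem-loop and a 3′ extension, was the tested replication-dependent gene whose RSM3 libraries all lay below Control. It had 60.1, 58.0 and 56.5 CPM in RSM3, against 65.5, 69.6 and 77.3 CPM in Control. The groups did not overlap, and the log2 fold change of −0.28 ± 0.09 did not pass (edgeR adjusted p = 0.103). Without RSM3 replicate 1 it passed (log2 fold change −0.31, edgeR adjusted p = 0.00614), where 5.77% of all genes were lower. H2BC21, a chromosome 1 H2B gene, had 47.2, 42.4 and 41.5 CPM in RSM3, against 44.4, 52.3 and 46.7 CPM in Control, with overlap (log2 fold change −0.13 ± 0.10, edgeR adjusted p = 0.551).

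The remaining 7 of the 12 were at 5.54 to 25.9 CPM in single libraries. These were the H2B genes H2BC5, H2BC4, H2BC8 and H2BC18, the H3 gene H3C6, the H4 gene H4C9 and the H2A gene H2AC13. Their log2 fold changes ran from −0.15 ± 0.21 in H2AC13 to 0.22 ± 0.15 in H2BC18, and their edgeR adjusted p-values from 0.497 to 0.911. Among these, H2BC18 had groups without overlap, with 8.66, 8.24 and 8.77 CPM in RSM3 against 7.80, 7.01 and 7.28 CPM in Control. The other 15 tested replication-dependent genes averaged under 7 CPM in each group. The furthest estimates were among them: H3C3 had 1.43, 0.749 and 1.74 CPM in RSM3 against 0.414, 1.08 and 0.369 CPM in Control, with overlap (log2 fold change 1.06 ± 0.50, edgeR adjusted p = 0.294). H2BC15 had 3.84, 4.80 and 3.09 CPM in RSM3 against 4.61, 5.92 and 7.07 CPM in Control (log2 fold change −0.58 ± 0.23, edgeR adjusted p = 0.189). Both were named for being the extremes, after their values were seen.

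By family, no replication-dependent set had a gene past the threshold. The median log2 fold change was −0.12 over 4 H2A genes, −0.05 over 12 H2B genes, 0.17 over 4 H3 genes, 0.20 over 5 H4 genes and 0.36 over 2 linker genes. Summed CPM of the H4 genes was 78.4, 74.4 and 71.7 in RSM3, against 81.4, 83.3 and 91.9 in Control, while the median of their fold changes was positive. The sum is mostly H4C8 and the median gives each gene equal weight.

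Summed over genes, the classes differed in how their groups lay. The variants summed to 2127, 2328 and 2338 CPM in RSM3, against 1925, 1947 and 1842 CPM in Control, without overlap (mean 2264 ± 119 and 1905 ± 55.4, SD, n = 3 each). Genes with many counts weigh most in this sum and in the ratio below. H3-3B alone, which did not pass the test, averaged 914 CPM in RSM3 and 768 CPM in Control. The replication-dependent genes summed to 601, 530 and 501 CPM in RSM3, against 536, 620 and 587 CPM in Control, with overlap (544 ± 51.4 and 581 ± 42.3). The ratio of the variant sum to the replication-dependent sum was 3.54, 4.39 and 4.66 in RSM3, against 3.59, 3.14 and 3.14 in Control. RSM3 replicates 2 and 3 were above all Control libraries, and RSM3 replicate 1 fell within the Control range. The means of the ratio were 4.20 ± 0.588 in RSM3 and 3.29 ± 0.261 in Control. Replication-dependent genes made up 22.0%, 18.5% and 17.7% of all histone counts in RSM3, against 21.8%, 24.2% and 24.2% in Control. These sums are not per length, and in bulk RNA fewer cells making a transcript and less RNA per cell cannot be told apart.

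**Figure D4:**
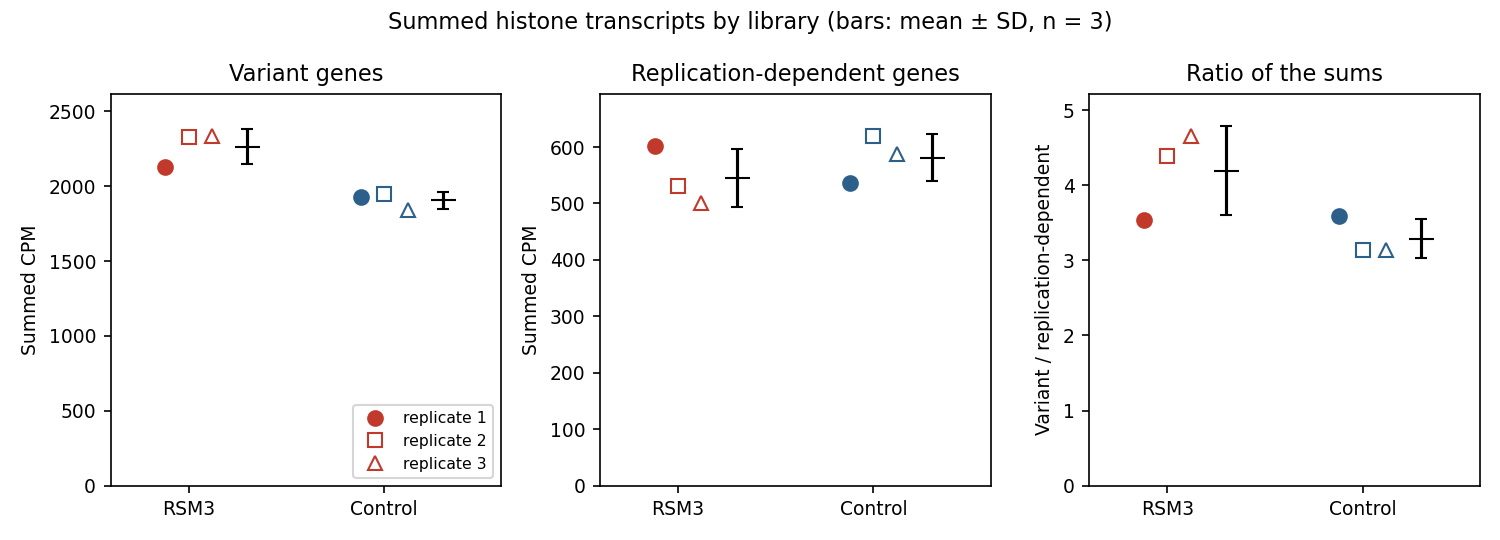
Summed CPM of the variant and of the replication-dependent histone genes in each library, and the ratio of the sums, with mean ± SD (n = 3) beside each group. The variant sums lie between 2127 and 2338 CPM in RSM3 and between 1842 and 1947 CPM in Control, while the ratio of RSM3 replicate 1 (3.54) lies within the Control values.

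The libraries differed in ways that touch these values. Totals were 14091359 to 16036658 counts in RSM3 and 16637873 to 18594251 in Control, and 22975 to 23841 genes were detected in RSM3 against 25142 to 25278 in Control, so depth moved with the groups. Across genes, the Spearman correlation of a library's deviation with GC content was 0.418 in RSM3 replicate 1, −0.321 and −0.289 in replicates 2 and 3, and 0.139, 0.158 and −0.204 in Control replicates 1, 2 and 3. With each library's trend on GC content and length removed, the variant to replication-dependent ratio was 3.42, 4.49 and 4.76 in RSM3, against 3.67, 3.18 and 3.18 in Control. RSM3 replicate 1 then lay within the Control range as before. RNAs that carry no poly(A) tail were near the floor: 77 rows of 27 such RNAs summed to 67 to 79 counts in RSM3 and 55 to 128 in Control, mostly RN7SL1, the RNA of the signal recognition particle. Of the markers of PC3 cells, VIM averaged 967 CPM in RSM3 and 928 CPM in Control, and KLK2 was at 0 in all libraries. TMPRSS2, listed as low in this line, averaged 74.7 CPM in RSM3 and 49.8 CPM in Control. Leukocyte markers, 10 genes of which none was tested and CD3D, CD3E and MS4A1, among others, were at 0, summed to 0.838 to 1.51 CPM in RSM3 and 1.21 to 3.01 CPM in Control. Fibroblast and endothelial markers, of which 3 of 8 were tested and DCN was at 0, summed to 82.9 to 111 CPM in RSM3 and 108 to 123 CPM in Control, mainly COL1A1. Among the 3 tested, the RSM3 libraries all lay below Control for COL3A1 and PECAM1, where 11.1% of all genes tested did so. COL3A1 averaged 2.47 ± 0.383 CPM in RSM3 and 4.42 ± 0.726 CPM in Control (SD, n = 3 each, edgeR adjusted p = 0.0718). PECAM1 averaged 20.4 ± 1.32 CPM in RSM3 and 24.2 ± 1.69 CPM in Control (edgeR adjusted p = 0.258). COL1A1 overlapped between groups (log2 fold change −0.27, edgeR adjusted p = 0.322). The untested markers were near the floor and went both ways. PDGFRB lay below, with 1 to 9 counts in a library and means of 0.143 CPM in RSM3 and 0.449 CPM in Control. LUM (0.411 and 0.130 CPM) and VWF (0.043 and 0.020 CPM) had higher means in RSM3, and CDH5 a lower one (0 and 0.073 CPM), all with overlap. The part of depth, base composition and these markers in the histone results was not tested.

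Calls of histone genes moved with the choice of libraries. Without RSM3 replicate 1, 5 variants rose, H2AZ1, H2AZ2, H3-3A and H3-3B among them, where 8.83% of all genes did, and 2 of 29 replication-dependent genes fell (H2AC11 and H4C8), where 5.77% did. H2AC11, an H2A gene of chromosome 6, had 8.28, 3.37 and 5.16 CPM in RSM3, against 6.97, 6.67 and 7.33 CPM in Control, with RSM3 replicate 1 the highest of all. Without any other single library no histone gene passed, where 1.33% to 2.49% of all genes did. With the correction for GC content and length and all 6 libraries, 4 variants rose, H2AJ, H2AZ1 and H3-3B among them, where 7.42% of all genes did, and H4C8 fell, where 2.69% did. The direction of H2AZ1, H2AJ, H3-3B and H4C8 was the same in all 18 settings.

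**Figure D5:**
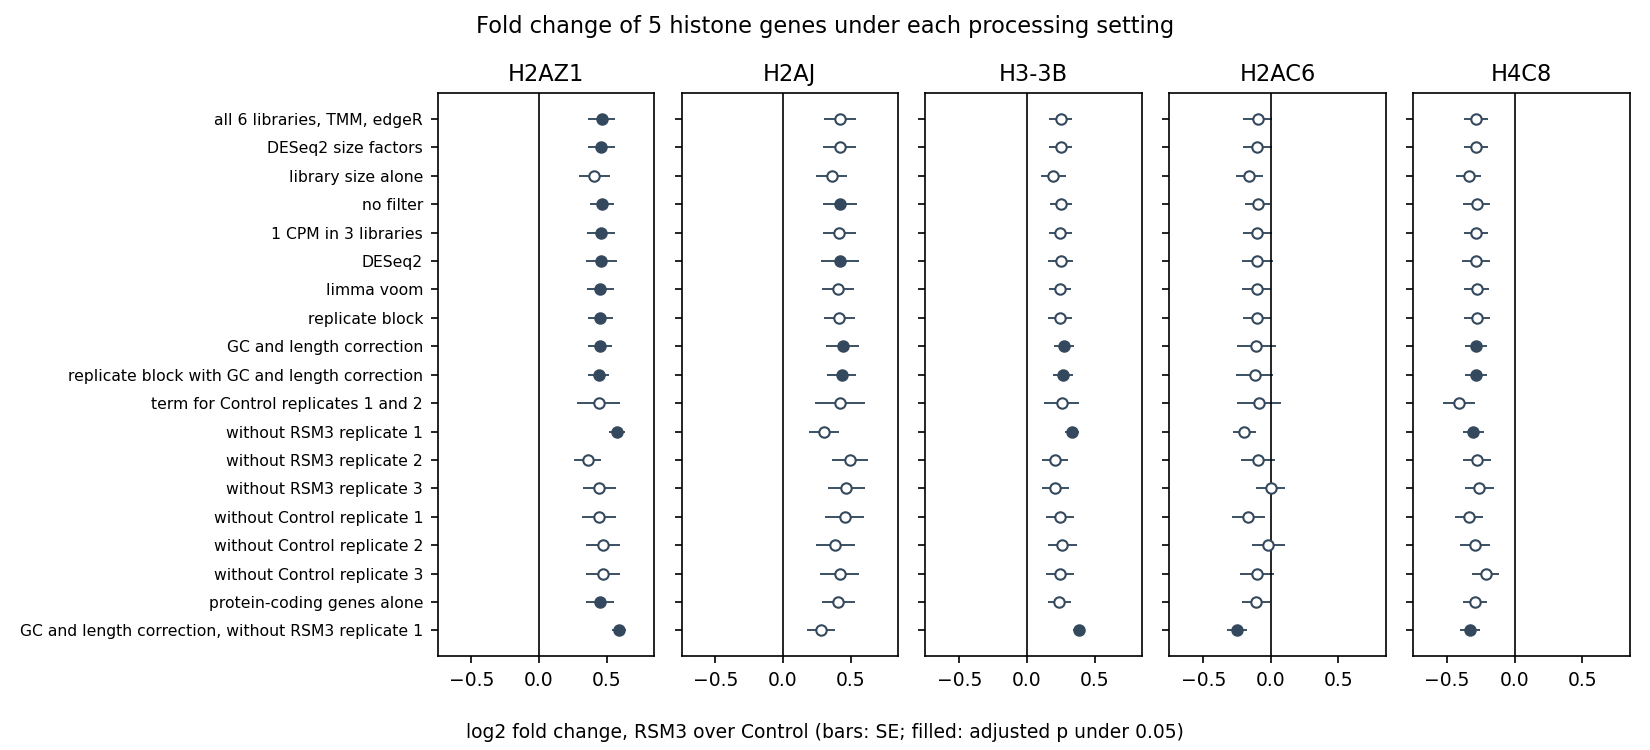
Log2 fold change, RSM3 over Control, of 5 histone genes with all libraries (top) and in 18 other settings, with standard errors, filled where the adjusted p was under 0.05. H2AZ1 lies between 0.36 and 0.59 in the other settings and H4C8 between −0.41 and −0.22.

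Factors that process histone mRNA were mostly not called. Of 29 tested genes for these factors, which include the stem-loop binding protein and the proteins of the U7 particle, 1 rose and none fell, where 3.09% and 1.1% of all genes did, and the median log2 fold change was −0.03. SNRPG, a core protein shared by spliceosomal and U7 particles, had 34.2, 30.4 and 32.4 CPM in RSM3, against 20.9, 19.9 and 23.8 CPM in Control. It rose by 0.59 ± 0.11 on the log2 scale (edgeR adjusted p = 0.00921), with no overlap. The core proteins SNRPE (log2 fold change 0.35, edgeR adjusted p = 0.0694) and SNRPF (0.38, adjusted p = 0.0823) and the RNA-binding protein YBX3 (0.24, adjusted p = 0.158) had groups without overlap but did not pass. LSM1 and XRN2 also lay above Control in all RSM3 libraries, where 12.8% of all genes tested did so. NCBP2 and CSTF2T lay below it, where 11.1% did so. Other core proteins, SNRPB and SNRPD3, overlapped between groups (log2 fold change 0.03 and −0.08). So did LSM10 and LSM11 of the U7 particle (−0.26 and −0.06) and SLBP, the gene of the stem-loop binding protein (0.04).

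Of 33 tested histone chaperones and deposition factors, none rose or fell, 8 had an unadjusted p under 0.05, where 17.8% of all genes did, and the median log2 fold change was 0.01. RBBP7, a histone-binding subunit of several chromatin complexes, had 252, 259 and 271 CPM in RSM3, against 220, 220 and 221 CPM in Control (log2 fold change 0.24 ± 0.07, edgeR adjusted p = 0.0768). CHAF1B and CHAF1A, subunits of the CAF-1 complex that deposits H3 and H4 at replication forks, had log2 fold changes of −0.27 ± 0.08 and −0.32 ± 0.11 (edgeR adjusted p = 0.103 and 0.118). The 3 RSM3 libraries lay above Control for RBBP7, as for HJURP, NAP1L4 and ASF1B, where 12.8% of all genes tested did so. They lay below it for both CAF-1 genes, as for NASP, MMS22L, CDAN1 and UBN1, where 11.1% did so. TONSL, which reads newly made histones, overlapped between groups (log2 fold change −0.26 ± 0.10, edgeR adjusted p = 0.173).

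Of 36 tested genes of S phase, 3 rose and 4 fell, where 3.09% and 1.1% of all genes did, with a median log2 fold change of −0.09. The nucleotide synthesis genes RRM2 and TYMS rose by 0.62 ± 0.09 and 0.60 ± 0.09 on the log2 scale (edgeR adjusted p = 0.00139 and 0.00179), and TK1, which salvages thymidine, by 0.38 ± 0.08 (adjusted p = 0.0206). The transcription factor gene E2F2 had 12.8, 14.5 and 15.7 CPM in RSM3, against 24.2, 24.0 and 26.4 CPM in Control, and fell by 0.80 ± 0.12 on the log2 scale (edgeR adjusted p = 0.00199). UHRF1, which binds hemimethylated DNA, MCM10, a helicase factor, and ORC1, a subunit of the origin recognition complex, also fell (log2 fold change −0.50, −0.54 and −0.51).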

How the data were processed

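The authors deposited whole-number read counts per gene, with no normalisation, for 3 RSM3 and 3 Control libraries. Per the labels' protocols, oligo(dT) beads selected RNA with tails, and libraries marked the strand with dUTP. STAR (2.7.1a), fastp, DESeq2, featureCounts and hg38 appear in the submitters' processing notes. Which annotation was used, and how reads with several matches were counted, is not stated in the sources used here, so counts of near-identical histone genes are uncertain.

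Genes were kept by filterByExpr (minimum count 10), scaled by TMM and tested with edgeR (4.0.16, R 4.3.3) by the quasi-likelihood F-test with robust dispersions, adjusted by the Benjamini-Hochberg method over 15773 genes. The biological coefficient of variation was 10.3%. Alternatives used DESeq2 (1.42.0), limma voom (3.58.1), other filters and scalings, loess correction for GC content and length (span 0.5), the replicate number as a block, a term for Control replicates 1 and 2, protein-coding genes alone, and each library left out. Scripts were tested on simulated counts. Replicates were further apart than counting noise (chi-square per degree of freedom 3.29 to 19.5). Intervals on log2 fold changes are standard errors derived from the F statistic of the edgeR fit, whose dispersions draw on all genes tested. Intervals on means of CPM and of ratios are SDs over libraries. Count floors cover counting error only.

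Members, classes and lists were chosen with earlier results of these data known. In full are given the tested variants (1 is not reported here, though it enters counts, medians and sums), the 12 replication-dependent genes with the most counts, and up to 4 genes of each list with the smallest adjusted p (all called ones for S phase).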

Additional observations from a re-analysis of the deposited data

How the results depend on the processing

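H2AZ1 kept its direction in all 18 other settings and its call in 11. It was lost with library size alone (log2 fold change 0.41, edgeR adjusted p = 0.0628), with a term for Control replicates 1 and 2 (0.44, adjusted p = 0.302), which leaves Control replicate 3 as the lone comparison, and without any library but RSM3 replicate 1. The number of variants called higher, 1 in the reported fit, was 0 with library size alone or the Control term (1.95% and 0.634% of all genes), 2 with no filter and with DESeq2 (H2AJ added; 2.14% and 4.35%), 4 with the GC and length correction (7.42%), and 0 to 5 with 1 library left out (1.1% to 8.83%). The number of replication-dependent genes called lower, 0 in the reported fit, was 1 with that correction (2.69% of all genes) and 0 to 2 with 1 library left out (0.229% to 5.77%). With the correction and without RSM3 replicate 1, a setting chosen after seeing the data, 4 variants were higher and 3 replication-dependent genes lower (H2AC6, H2AC11 and H4C8), where 10.5% and 3.56% of all genes were. The variant median was 0.1963 with library size alone (where all genes had a median of −0.0617), 0.2956 with the Control term and 0.1875 to 0.3189 with 1 library left out. The replication-dependent median changed sign, at −0.0469 to 0.0765 with 1 library left out, 0.0188 with the GC and length correction and 0.0844 in the setting chosen after seeing the data. No replication-dependent gene was called higher in any setting. Single genes that never passed also changed sign: H2BC4 was at 0.0188 with the correction, 0.0105 with the block added to it, and −0.1861 to 0.0307 with 1 library left out, H2BC5 at −0.1831 to 0.0432 and H2BU1 at −0.0061 to 0.3189 with 1 left out, and H2AC13 at 0.1694 with the Control term and −0.348 to 0.0547 with 1 left out. The cause of these moves was not tested.

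Same-numbered libraries of the groups had correlations of 0.0302, −0.0249 and 0.0444 between their deviations, so the numbers were not taken as pairs. The replicate block gave 1 variant call, H2AZ1, and 653 calls over all genes. The replicate block with the GC and length correction gave 5 variants higher and 1 replication-dependent gene lower, where 6.82% and 2.49% of all genes were. Depth limits the 38 replication-dependent genes below the filter, none of which exceeded 17 counts in a library; with no filter, 57 replication-dependent genes were tested and 0 called.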

Other observations

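Several histone genes lie outside the pattern of symbols used here, and were chosen after their values were seen. CENPA, the H3 variant of centromeres, had 7.00, 6.43 and 7.86 CPM in RSM3, against 5.14, 3.93 and 2.53 CPM in Control, without overlap (log2 fold change 0.88 ± 0.24, edgeR adjusted p = 0.054). MACROH2A2, which encodes an H2A variant with a large extra domain, had 66.0, 64.9 and 62.4 CPM in RSM3, against 74.7, 72.1 and 72.4 CPM in Control, so that the groups separated in the other direction (log2 fold change −0.18 ± 0.08, edgeR adjusted p = 0.251). MACROH2A1 overlapped between groups (log2 fold change 0.09 ± 0.08, edgeR adjusted p = 0.614).

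Of 81 histone pseudogenes in the table, 4 were tested and none passed with edgeR, with 1 at an unadjusted p under 0.05. That was H2BC20P, at 9.78, 12.7 and 14.3 CPM in RSM3, against 16.4, 15.3 and 18.1 CPM in Control (log2 fold change −0.43 ± 0.15, edgeR adjusted p = 0.14).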
